A study of Drosophila melanogaster with 32 samples.

Results

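Genes of lipid synthesis and its control were followed through the edited sites that 7 libraries of Drosophila S2 cells listed. They were found by their names in the deposited site lists, without regard to case: SCAP, HLH106 (the older name of SREBP, under which alone the lists hold it), S2P, ACC, Desat1 and Acsl. These are 6 of 5181 named genes, and they held 85 of 33835 sites. SCAP was picked because earlier results of these data showed many sites with one construct and few with another, and the other genes were picked for their place in its pathway. Numbers of sites in the Hrp48 libraries are therefore given as a description, with no test.

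SREBP is a transcription factor that is made as a membrane-bound precursor in the endoplasmic reticulum. SCAP, its escort protein, carries the precursor to the Golgi, where the proteases S1P and S2P release the part that enters the nucleus. In flies the released factor raises transcription of fatty acid synthesis genes, and phosphatidylethanolamine, rather than sterol, holds its release in check. ACC, acetyl-CoA carboxylase, makes malonyl-CoA, the building block of fatty acid chains. Desat1 puts a double bond into them, and Acsl, a long-chain acyl-CoA synthetase, activates fatty acids for use.

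S2 is a cell line from Drosophila embryos with features of hemocytes, the blood cells of the fly. Plasmids were introduced transiently, CuSO4 induced the proteins, and transfected cells were sorted by fluorescence, in all groups used here. Each group carried the ADAR catalytic domain, an enzyme part that turns adenosine into inosine, read as guanosine: with Hrp48, an hnRNP protein, in Hrp48 TRIBE (2 libraries), the same with the E488Q change in Hrp48 HyperTRIBE (2), the E488Q domain without an RNA-binding protein (2, the deaminase alone), and FMRP, a translational regulator, with the E488Q domain in FMRP HyperTRIBE (1; a second replicate that the labels name was not analysed here). No label says whether the replicates were separate cultures, so their spread may be technical. The site lists hold no site with under 20 reads or under 10% edited reads, so the absence of a site from a list can mean low coverage, weak editing or no editing.

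The 7 libraries listed between 13 sites (deaminase alone, replicate 1) and 22803 sites (Hrp48 HyperTRIBE, replicate 2), with medians of 27 to 37 reads per site. No site anywhere exceeded 149 reads, so read numbers near that ceiling do not measure expression. Of 9 hemocyte markers 5 were listed (crq, vkg, Cg25C, srp and ush), of 5 neuronal markers only brp, with 1 site, and of 5 fat body markers none. Hml, NimC1, Pxn and Sr-CI, the other hemocyte markers, were not listed. A listing needs editing as well as reads, so a missing marker does not show a missing transcript. At the sites of the 6 genes, 2 of 7009 reads (0.0285%) held a base other than the unedited or edited one.

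All 6 genes were listed in both Hrp48 HyperTRIBE libraries, with 62 sites in replicate 1 and 58 in replicate 2. The Hrp48 TRIBE libraries listed 1 and 2 sites in these genes, FMRP HyperTRIBE 14, and the deaminase alone 0 and 1. Over all genes Hrp48 HyperTRIBE listed 19706 and 22803 sites, Hrp48 TRIBE 1252 and 1400, FMRP HyperTRIBE 4694, and the deaminase alone 13 and 459. Numbers in the 6 genes are to be read beside these totals. Every one of the 6 genes had more sites in both Hrp48 HyperTRIBE libraries than in either Hrp48 TRIBE library. So had 94.4% of the 3682 genes that both Hrp48 HyperTRIBE libraries listed, and 67.6% of all 5144 genes listed with either Hrp48 construct. SCAP alone supplied 39 and 32 of the HyperTRIBE sites. All 85 sites were marked as exonic, and within each gene all lay on one strand.

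**Figure D1:**
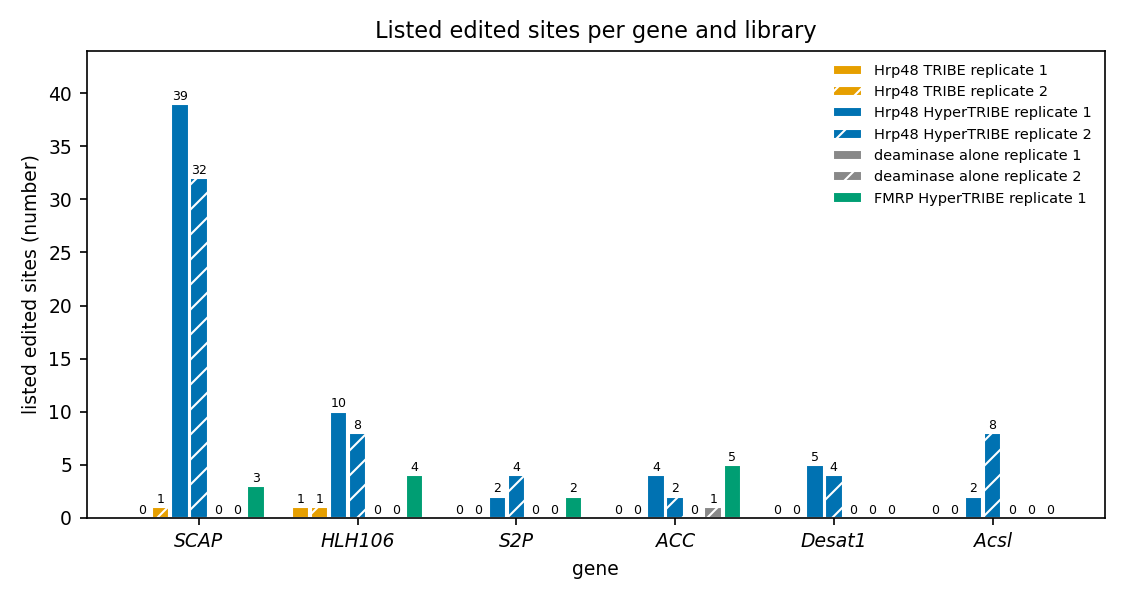
Number of listed edited sites (vertical axis) in each of the 6 genes (horizontal axis), with a bar for each of the 7 libraries, hatched for replicate 2, and the number above it. SCAP stands highest with 39 and 32 sites in Hrp48 HyperTRIBE, and no gene has more than 1 site in a Hrp48 TRIBE or deaminase-alone library.

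SCAP (2R, 1913964 to 1923771 in build dm3, minus strand) held more Hrp48 HyperTRIBE sites than the other 5 genes together. The mean was 35.5 ± 4.95 sites (SD, n = 2) with Hrp48 HyperTRIBE and 0.5 ± 0.707 (SD, n = 2) with Hrp48 TRIBE. The Hrp48 HyperTRIBE libraries shared 29 sites, which were 74.4% of those in replicate 1 and 90.6% of those in replicate 2. Over all genes these shares were 55.1% and 47.6%. By shared sites SCAP stood at rank 2, ties included, of the 3220 genes with at least 1. SCAP was picked for its many sites, so a high rank was set by that choice. Its median reads, 27 and 37 per site, exceeded those of 28.9% and 33.8% of these genes. No SCAP site reached 50 reads in replicate 1 and 1 did in replicate 2.

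The most strongly edited SCAP site lay at 1914188, near the 3′ end of the listed stretch. It was edited in 20 of 32 reads (62.5%, Wilson 95% interval 45.3 to 77.1%) in replicate 1 and in 26 of 36 (72.2%, 56.0 to 84.2%) in replicate 2 of Hrp48 HyperTRIBE. No other library listed it. These intervals, like all below, cover counting error only, and reads are not independent molecules. Next, by the mean of the replicates, came 1913964, the most 3′ of all SCAP sites, with 12 of 27 reads edited (44.4%, 27.6 to 62.7%) and 29 of 49 (59.2%, 45.2 to 71.8%). It was also the sole SCAP site of Hrp48 TRIBE, at 3 of 25 reads (12%, 4.17 to 30%) in replicate 2, while replicate 1 did not list it. Both HyperTRIBE values lay above the TRIBE value, whose interval met that of HyperTRIBE replicate 1 and not that of replicate 2. SCAP was picked for sites that differed between constructs, and this site ranked high by HyperTRIBE editing. The order of these values is therefore a description only. The next sites lay far from the 3′ end, at 1923114 (45.5% and 29.6%) and 1919987 (38.1% and 35.9%). The site at 1914604 was at 28.6% and 40.9%, and FMRP HyperTRIBE listed it at 3 of 20 reads (15%, 5.24 to 36.0%).

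Across all listed SCAP sites the median editing was 15.4% in replicate 1 and 18.6% in replicate 2, with ranges of 10% to 62.5% and 11.1% to 72.2%. Summed over sites, 226 of 1113 reads were edited in replicate 1 (20.3%, 18 to 22.8%) and 294 of 1196 in replicate 2 (24.6%, 22.2 to 27.1%). At the 29 shared sites editing was higher in replicate 2 at 16 and lower at 13, by a median of 1.28 percentage points. The median size of the difference at a site, in either direction, was 7.03 points. Replicate 2 had more reads at all 29 of them (medians 27 and 38). Across these sites, which share their libraries and transcript, Pearson's r between the replicates was 0.72, and Spearman's rho was 0.53.

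**Figure D2:**
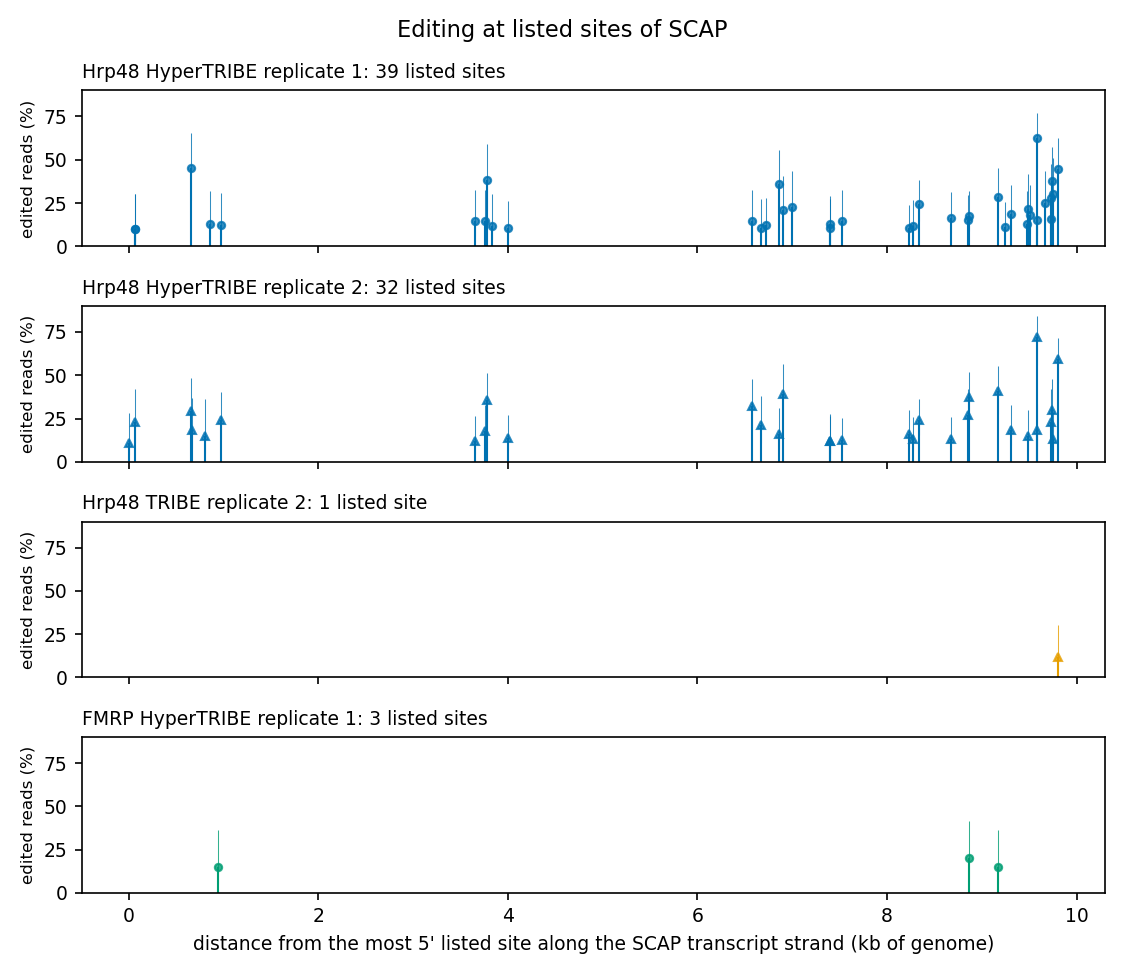
Percent of edited reads (vertical axes, with Wilson 95% intervals) at each listed SCAP site against its distance in kb of genome from the most 5′ listed site along the transcript strand (horizontal axis), with a panel for each library that listed SCAP. Both Hrp48 HyperTRIBE panels show 3 stretches separated by gaps, with the most sites and the most edited site in the most 3′ stretch, where the single Hrp48 TRIBE site and 2 of the 3 FMRP sites also lie.

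The SCAP sites fell into 3 stretches when a gap of over 1000 bases was taken as a break. The most 3′ stretch, 3232 bases long (1913964 to 1917195), held 29 of the 43 sites listed by any library, with medians of 17.5% and 19.9% in the Hrp48 HyperTRIBE libraries. The middle stretch, 349 bases long (1919766 to 1920114), held 5 sites at medians of 14.8% and 16%. The most 5′ stretch, 978 bases long (1922794 to 1923771), held 9 sites at medians of 12.5% and 20.8%. From 5′ to 3′ the median reads of the stretches were 22, 27 and 28 in replicate 1 and 27, 39 and 39 in replicate 2, so the most 5′ one lay closest to the minimum of 20. The part of read depth in this pattern was not tested. Neighbouring sites were close: 82.1% and 75.0% of SCAP sites had another within 100 bases, against 56.0% and 55.2% of all lines of these libraries. Genes in both libraries had a median of 4 sites in each, and SCAP was picked for its many sites. The part of this choice in the higher share was not tested, since genes with as many sites were not compared.

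SCAP sites that a single HyperTRIBE library listed had lower medians than the shared ones, which stood at 16.2% and 21.2%. The list minima favour such a difference, since a shared site had to reach 10% edited and 20 reads in both libraries. The 10 SCAP sites of replicate 1 alone ranged from 10% to 25% (median 13%, 25 reads), and the 3 of replicate 2 alone from 11.1% to 18.5% (median 15%, 27 reads). Up to 3 edited reads stood behind 9 of the 39 sites of replicate 1 and 2 of the 32 sites of replicate 2. Editing of at least 20% was seen at 14 and 15 sites.

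**Figure D3:**
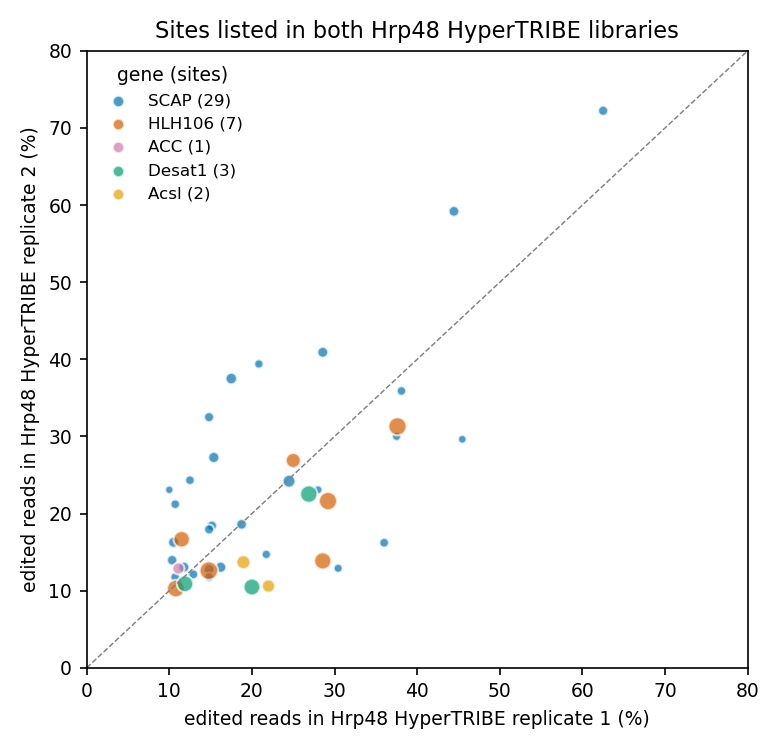
Percent of edited reads in Hrp48 HyperTRIBE replicate 1 (horizontal axis) and replicate 2 (vertical axis) at the sites listed in both, coloured by gene, with point area in proportion to the reads of both libraries together and a dashed line of equal values. The 29 SCAP sites spread over both sides of the line with small points, and the 3 Desat1 and 2 Acsl sites lie under it.

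HLH106, the SREBP gene (3L, 19788751 to 19791942, plus strand), had 10 and 8 sites in the Hrp48 HyperTRIBE libraries, 1 in each Hrp48 TRIBE library and 4 in the FMRP library. It was read far more deeply than SCAP at listed sites, with medians of 104.5 and 105.5 reads, above those of 97.6% and 96.6% of the 3220 genes. The site at 19790014 was the only one of the 6 genes that all 4 Hrp48 libraries listed. It was edited in 9 of 74 reads (12.2%) and 10 of 95 reads (10.5%) with Hrp48 TRIBE, and in 41 of 109 (37.6%) and 36 of 115 (31.3%) with Hrp48 HyperTRIBE. FMRP HyperTRIBE edited it in 22 of 96 reads (22.9%, 15.6 to 32.3%). Both Hrp48 HyperTRIBE libraries lay above both Hrp48 TRIBE libraries. This held also within the library sets that the file headers name, set 02 for the first replicates and set 03 for the second. The FMRP value lay between. FMRP HyperTRIBE is of set 05 and the deaminase alone of sets 04 and 06. Differences of these constructs from the Hrp48 libraries, here and elsewhere, cannot be told apart from library set.

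The mean at that site was 11.3% ± 1.16 (SD, n = 2) with Hrp48 TRIBE and 34.5% ± 4.46 (SD, n = 2) with Hrp48 HyperTRIBE. The difference was 23.1 percentage points, or 1.98 ± 0.58 log2 odds (SE), and passed the threshold of 0.05 (limma over the 298 sites listed in all 4 libraries, adjusted p = 0.0062). Of these 298 sites 27.9% were called higher, the median difference was 0.86 log2 odds, and at 60.7% the values of the HyperTRIBE libraries exceeded both TRIBE values. This contrast was in view when the genes were chosen, so the value is a description. All 298 sites had at least 10% edited reads in every library. Both TRIBE values here lay near that minimum, which can narrow their spread. Without HyperTRIBE replicate 1 the difference was 1.78 log2 odds (limma adjusted p = 0.335) and without replicate 2 it was 2.18 (adjusted p = 0.155). These fits take their spread at the site from the 2 TRIBE libraries alone and assume that the lone HyperTRIBE library varies alike. In both fits the call was lost, while the size of the difference stayed near that of all 4 libraries. Why the call was lost was not tested.

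The 7 HLH106 sites shared by the Hrp48 HyperTRIBE libraries were 70.0% and 87.5% of those in each library. After 19790014 the highest were 19791942, the most 3′ of all its sites, at 25% and 26.9%, and 19791543 at 29.2% and 21.6%. A group of 7 sites between 19791543 and 19791942 was listed by Hrp48 HyperTRIBE only. The 4 FMRP sites all lay on the 5′ side of it, at 19788751, 19790014, 19790300 and 19790719, and Hrp48 HyperTRIBE listed each of them too, 3 in both libraries and 19790300 in replicate 2. With FMRP they were at 14.5%, 22.9%, 13.4% and 16.3%. At 19788751 the Hrp48 HyperTRIBE values were 11.5% and 16.7%, and at 19790719 they were 14.8% and 12.6%. The FMRP intervals at these sites (8.47 to 23.6% and 10.5 to 24.6%) held both Hrp48 values, while at 19790014 the interval held the 31.3% of replicate 2 and not the 37.6% of replicate 1. With 1 FMRP library analysed no test of the difference was made.

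S2P, encoding the second protease, was listed with 2 sites in Hrp48 HyperTRIBE replicate 1 and 4 in replicate 2, and none of these positions coincided (2R, 7729756 to 7731093, minus strand). The sites of replicate 1 were at 23.3% and 20%, on 30 reads each. In replicate 2 the neighbouring sites 7731090 and 7731093 were at 27.7% and 14.9% of 47 reads. FMRP HyperTRIBE listed the same pair, each at 4 of 26 reads (15.4%, 6.15 to 33.5%), and nothing else in the gene. Neither Hrp48 TRIBE nor the deaminase alone listed S2P.

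In ACC (2R, 3861860 to 3868176, minus strand) no site was listed by more than 1 construct. Hrp48 HyperTRIBE listed 4 and 2 sites between 3861860 and 3862693, toward the 3′ end of the listed stretch. The most edited was 3862003, at 27.8% in replicate 1, and the single shared site, 3862693, was at 11.1% and 12.9%. FMRP HyperTRIBE listed 5 sites between 3864996 and 3867448, at 10.9% to 17.4% on 23 to 46 reads. The lists are 2303 bases apart, and 0 of the 5 FMRP sites were in a Hrp48 HyperTRIBE library. Of all FMRP sites, 69.9% were in one, and so were 2 of 3 in SCAP, 4 of 4 in HLH106 and 2 of 2 in S2P. ACC was also the only one of the 6 genes that the deaminase alone marked, at 3868176 in replicate 2, the most 5′ of its sites, with 3 of 23 reads (13%, 4.54 to 32.1%). That site was in no other library. Reads at positions that a library did not list are not known, so the depth of the Hrp48 libraries in the 5′ part of ACC cannot be given.

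Desat1 (3R, 8270591 to 8273054, plus strand) held 5 and 4 Hrp48 HyperTRIBE sites and none with any other construct, on medians of 93 and 107.5 reads. Its 3 shared sites lay within the last 147 bases of the listed stretch. The highest, at 8273054, was edited in 25 of 93 reads (26.9%, 18.9 to 36.7%) and 25 of 111 (22.5%, 15.7 to 31.1%). The site at 8272908 was at 20% and 10.5%, and that at 8273013 at 11.9% and 10.9%, close to the minimum of 10%. All 3 were lower in replicate 2, and the median drop was 4.36 percentage points. Desat1 as a whole had median editing of 12.7% and 11.4%, above that of 13.7% and 4.69% of the 3220 genes.

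Acsl (2R, 4567783 to 4569887, plus strand) held 2 and 8 Hrp48 HyperTRIBE sites and none with the other constructs. Both sites of replicate 1 were in replicate 2, at 22% and 10.6% (4567783) and at 19% and 13.7% (4569493). The 6 further sites of replicate 2 were all between 12% and 15%, on a median of 65.5 reads. The numbers of sites thus differed between these replicates. In replicate 2 the added sites, at a median of 13%, and the shared ones, at 10.6% and 13.7%, all lay near the listing minimum.

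**Figure D4:**
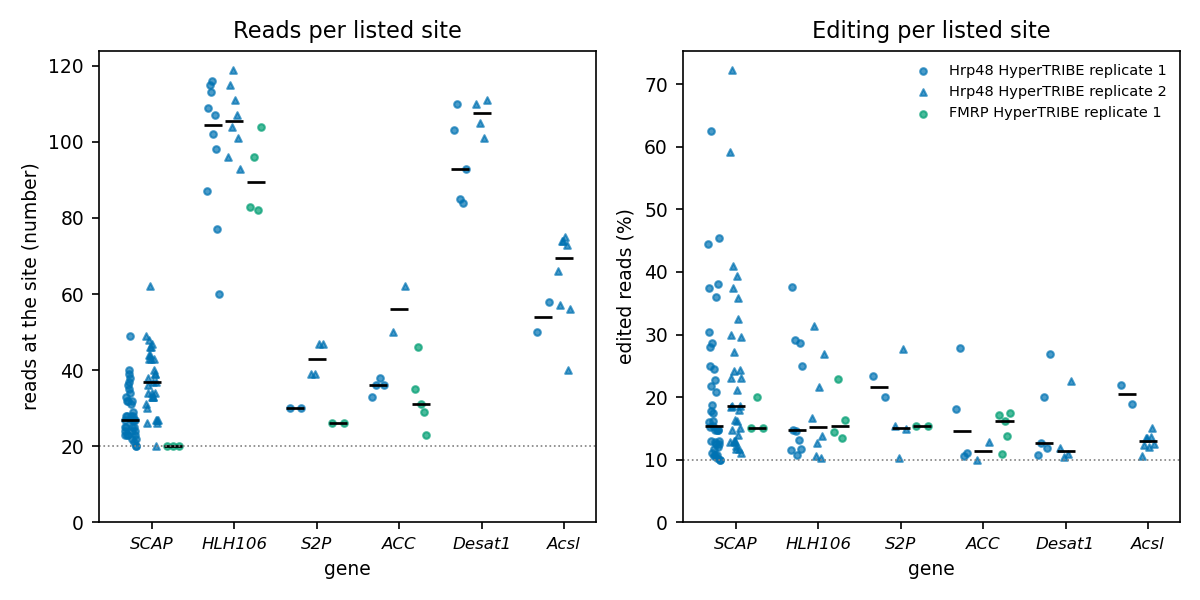
Reads (left) and percent of edited reads (right) at every listed site of the 6 genes in the Hrp48 HyperTRIBE and FMRP HyperTRIBE libraries, with medians as black bars and the lowest values in the files, 20 reads and 10%, as dotted lines. SCAP has low reads and the widest range of editing, up to 72.2%, while HLH106 and Desat1 sites have medians of 89.5 to 107.5 reads and no site above 37.6%.

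With FMRP HyperTRIBE 4 of the 6 genes were listed, SCAP, HLH106, S2P and ACC. Of the 3682 genes that both Hrp48 HyperTRIBE libraries listed, 47.0% had an FMRP site. By position, 5 of the 42 sites that both Hrp48 HyperTRIBE libraries listed in the 6 genes were FMRP sites, against 20.4% of all such sites. By gene they were 2 of 29 in SCAP, 3 of 7 in HLH106, 0 of 1 in ACC, 0 of 3 in Desat1 and 0 of 2 in Acsl. Most of the 42 thus lay in SCAP, which was picked for many sites with one construct and few with another. The 3 SCAP sites of FMRP HyperTRIBE stood at 20 reads each, the lowest number in the files. At 1914909 editing was 20% (8.07 to 41.6%) with FMRP and 17.5% and 37.5% with Hrp48 HyperTRIBE, and the site at 1922824, at 15%, was listed with FMRP only. Hrp48 TRIBE listed 2 of the 6 genes (32.7% of the 3682) and the deaminase alone 1 of 6 (7.22% of the 3682).

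Of 44 other genes of the pathway, 36 were listed by at least 1 library and 28 by both Hrp48 HyperTRIBE libraries. Over all 5181 listed genes, 71.1% were in both. All 28 had more sites in both Hrp48 HyperTRIBE libraries than in either Hrp48 TRIBE library, as had 94.4% of the 3682 genes in both. Of the 36 listed genes, FMRP HyperTRIBE listed 15 (38.7% of the 5181), Hrp48 TRIBE 16 (25.1%) and the deaminase alone 1 (5.54%). The median number of shared HyperTRIBE sites was 2.5 over the 36 and 1 over the 5181 genes.

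In phospholipid and triglyceride synthesis 11 of 16 genes (14 listed) were in both Hrp48 HyperTRIBE libraries, with 87 and 86 sites, and 3 were listed with FMRP HyperTRIBE, with 6 sites. Pis, phosphatidylinositol synthase, had 20 and 22 Hrp48 HyperTRIBE sites, 16 of them shared, and none in any other library. The gene bbc, which encodes a choline or ethanolamine phosphotransferase, had 18 and 11 (9 shared), 2 and 1 with Hrp48 TRIBE and none with FMRP. In fatty acid synthesis and supply 7 of 12 genes (7 listed) were in both libraries. ATPCL, the ATP citrate lyase that supplies acetyl-CoA, had 8 and 8 sites, 7 of them shared, at medians of 14.3% and 15.1%, and 3 with FMRP.

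Among storage and regulation genes 5 of 9 (8 listed) were in both Hrp48 HyperTRIBE libraries. Hmgs, HMG-CoA synthase, had 15 and 10 sites (10 shared) on medians of 94 and 101 reads. SNF4Agamma, the gamma subunit of the AMP-activated kinase, tied with ATPCL at 7 shared sites of 14 and 21. Of the 6 coat genes that carry SCAP out of the endoplasmic reticulum, all listed, 5 were in both libraries and 4 with FMRP HyperTRIBE. These coat genes held 30 FMRP sites, against 10 in storage and regulation, 7 in fatty acid and 6 in phospholipid and triglyceride genes. The part of read depth in these numbers was not tested. Sec24AB, a cargo-binding coat subunit, had 21 and 15 Hrp48 HyperTRIBE sites (13 shared) and 10 with FMRP. Sec23 had 10 and 12 (8 shared), 6 with FMRP, 4 and 0 with Hrp48 TRIBE, and 4 with deaminase-alone replicate 2, the only sites of the 44 genes in a deaminase-alone library. S1P, the first protease, had 0 sites in Hrp48 HyperTRIBE replicate 1 and 8 in replicate 2, on a median of 23.5 reads.

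**Figure D5:**
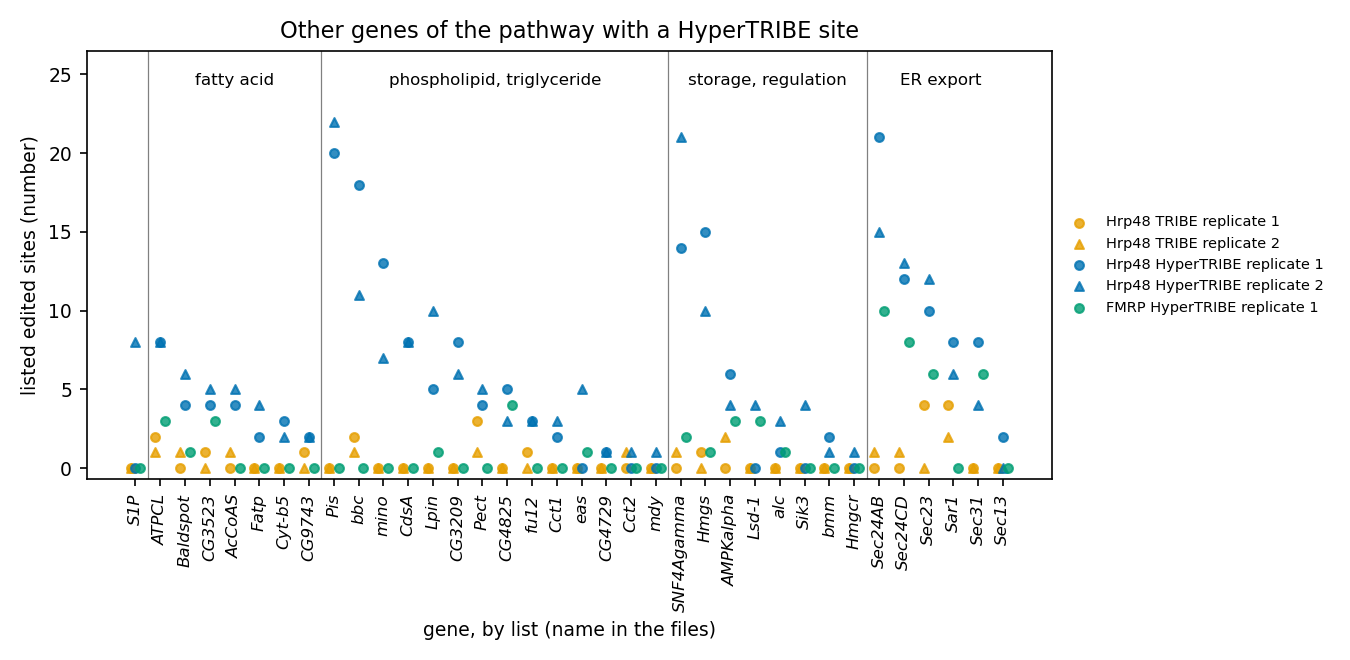
Number of listed sites (vertical axis) in the other genes of the pathway with a HyperTRIBE site (horizontal axis, grouped by list), with a point for each Hrp48 TRIBE, Hrp48 HyperTRIBE and FMRP HyperTRIBE library. Pis, SNF4Agamma and Sec24AB reach 20 or more Hrp48 HyperTRIBE sites in a library, and among these genes FMRP numbers are highest for Sec24AB, at 10.

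The 5 genes whose site numbers were most like those of SCAP over the 7 libraries, by the Euclidean distance of log2(sites + 1), were par-6, CG2698, Vang, CG31678 and unc-5, at distances of 0.57 to 0.67. They held 25 to 33 sites in Hrp48 HyperTRIBE replicate 1 and 24 to 39 in replicate 2. Each had 0 sites in Hrp48 TRIBE replicate 1 and 1 or 2 in replicate 2, none with the deaminase alone, and 2 to 4 with FMRP HyperTRIBE. With 7 libraries of 4 constructs such distances are descriptions only.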

How the data were processed

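Editing sites of 7 S2 libraries were analysed, of 32 samples in the series; the remaining samples were not analysed here. Members and lists were chosen with earlier results of these data known. The deposited files give whole-number read counts per base, edited and total counts, and the percent edited; a score column that the authors deposited is 10 times that percent and was not used. The strand was read from a second set of base counts. Build dm3, Picard 2.8.2 and TopHat2 2.1.1 are named, per the submitters' processing notes; how the list minima were set is not stated. Gene names and exon marks are those of the files; of the 6 names 5 are current RefSeq symbols and 1 an older one.

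Sample titles gave the groups and the replicate numbers. Numbers of sites, shares with Wilson 95% intervals, stretches (gaps over 1000 bases) and neighbours (within 100 bases) were computed with scipy 1.17.1, numpy 2.4.6 and pandas 2.3.3 under Python 3.11.15, and drawn with matplotlib 3.10.9. Editing at the 298 sites in all 4 Hrp48 libraries was fitted with limma 3.58.1 (R 4.3.3) as log2((edited + 0.5)/(unedited + 0.5)), Benjamini-Hochberg adjusted over all 298. Sites count alike whatever their reads, and the spread is pooled over sites. The script was tested on simulated data, where its estimates were near the true differences and false calls were few. It called only part of the larger and few of the smaller differences, so a site that is not called may still differ. The simulated sites were not cut at the list minimum of 10% edited, so the test does not cover that cut. Named were the sites in all 4 Hrp48 libraries, those that another construct shared with Hrp48 HyperTRIBE, and the 3 (SCAP 5) most edited shared sites of a gene; sites listed with a single construct were named besides after their values were seen. Other pathway genes were named by most shared HyperTRIBE sites; SNF4Agamma, S1P and the listed markers were named after their values were seen. Alternatives were another pseudocount (1), minima of 50 reads or 20% edited, merging of sites within 100 bases, a replicate block and leaving out each library.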

Additional observations from a re-analysis of the deposited data

How the results depend on the processing

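The mean number of SCAP sites, Hrp48 HyperTRIBE minus Hrp48 TRIBE, was 35; it was 0.5 with at least 50 reads, 14.5 with at least 20% edited and 16.5 with sites within 100 bases merged, and 31.5 to 38.5 without 1 library. For the 6 genes together it was 58.5, with 18.5, 22 and 34.5 under these settings and 56.5 to 60.5 without 1 library. No difference changed sign, but Hrp48 TRIBE listed only 1 and 2 sites in these genes, so a change of sign was hardly possible. The 83 sites called by limma over all genes became 31 with at least 50 reads in every library and 1 to 172 without 1 library (1 without either HyperTRIBE library; 172 without TRIBE replicate 1, 171 of them higher; 90 without TRIBE replicate 2, 81 of them higher; the rest were lower, where none was with all 4). Fewer sites or libraries enter these fits. The HLH106 site had an adjusted p between 0.00051 and 0.335 over its alternatives, above 0.05 only without a HyperTRIBE library. With the replicate block 83 sites were called and the HLH106 site had an adjusted p of 0.0063; same-numbered libraries share a library set in the file headers, but their deviations did not correlate (r = -0.01 over 298 sites). Depth limits SCAP and S2P: nearly all SCAP sites have 20 to 49 reads, and every S2P site has 26 to 47.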

Other observations

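Several sites of the 6 genes lay within 10 bases of each other: 7 pairs in SCAP, 1 in S2P and 1 in Acsl. The levels within a pair could differ. In SCAP, 1914185 and 1914188, 3 bases apart, were at 15.2% and 62.5% in Hrp48 HyperTRIBE replicate 1 and at 18.4% and 72.2% in replicate 2. The Acsl pair 4569256 and 4569257 was at 13.5% and 12% of 74 and 75 reads in replicate 2, and replicate 1 listed neither. The S2P pair had 4 of 26 reads edited at both positions with FMRP HyperTRIBE, and 13 and 7 of 47 with Hrp48 HyperTRIBE replicate 2. The files do not show whether the same reads carried both edits.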
